A study of Mus musculus with 12 samples.

Results

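Conventional dendritic cells were described in the mouse mammary gland as single cells chosen by their own transcripts. A cell was taken as a dendritic cell when it held at least 20 UMIs of the MHC class II genes H2-Aa, H2-Ab1 and Cd74, at least 2 UMIs of Flt3, Cd209a, Clec9a, Xcr1 and Ccr7, fewer than 5 UMIs of the C1q genes, and no UMI of Cd79a, the Cd3 genes or Pdgfra. A UMI is 1 counted RNA molecule. The gate held 430 of the 46257 cells kept, and 424 of them were among the 6638 immune cells, a share of 6.39% (exact 95% binomial interval 5.81 to 7.00). By the largest of 3 sums, Clec9a with Xcr1, Cd209a alone and Ccr7 alone, 139 cells fell on the Clec9a/Xcr1 side, 218 on the Cd209a side and 48 on the Ccr7 side, and 25 held none of these genes or a tie.

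Conventional dendritic cells take up antigen in a tissue, cut it into peptides and show it on MHC molecules to T cells. A first kind, marked by the dead-cell receptor Clec9a and the chemokine receptor Xcr1, is known for passing antigen from dying cells to CD8 T cells. A second kind, in which Cd209a is often found, is known for priming CD4 T cells. Either kind can mature, gain the lymph-node homing receptor Ccr7 and leave the tissue along lymphatic vessels.

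All 12 libraries came from C57BL/6J mammary glands at 43 weeks of age, with 1 library per group. Intact mice received no VCD, and the other 11 groups received 4-vinylcyclohexene diepoxide (VCD), which destroys ovarian follicles and so models menopause, at 160 mg/kg/day for 15 days by intraperitoneal injection. Of these, 9 formed a full layout of 3 hormone levels by 3 diet levels. The hormone levels were sesame oil vehicle, 17β-estradiol (E2, 1 µg/animal/day for 1 week) and E2 with progesterone (P4, 1 mg/animal/day for 1 week). The diets were a matched food with DMSO, a low dose of polybrominated diphenyl ethers (PBDE-47, PBDE-100 and PBDE-153 at 0.05, 0.0028 and 0.0063 mg/kg/day) for 20 weeks, and a high dose (1, 0.056 and 0.126 mg/kg/day) for 1 week. The groups were VCD_Vehicle, VCD_E2 and VCD_E2_P4, then VCD_Low_PBDE, VCD_Low_E2 and VCD_Low_E2_P4, and VCD_High_PBDE, VCD_High_PBDE_E2 and VCD_High_PBDE_E2_P4. The remaining VCD groups were VCD_Vehicle_NormEnv, a second vehicle group whose suffix the labels do not explain, and VCD_E2_ICI, given E2 and 1 dose of 5 mg of the estrogen receptor degrader fulvestrant (ICI). The number of animals behind a library was not given, and lymph nodes were taken out of the glands by hand before dissociation.

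With 1 library per group there was no replicate within a group. The 9-library layout was therefore read additively, so that the libraries at other diet levels served as repeats of a hormone level and the reverse. The libraries held 41737881 to 109224969 UMIs each, with a median of 11843 to 20446 UMIs per kept cell. A dendritic cell held a median of 15589.5 UMIs, and a library's dendritic cells together held 244741 to 1014382 UMIs. Levels are given below as CPM, the UMIs of a gene per 1000000 UMIs summed over the dendritic cells of a library. Such a sum cannot tell fewer expressing cells from less RNA per cell. Of the 430 cell barcodes, 2 were also kept in another library, and none was a dendritic cell in more than 1.

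The gate had clear margins on MHC class II and narrow ones on the dendritic cell genes. The 3 members just inside held 20 to 29 MHC class II UMIs, and 4 cells with 10 to 19 lay just outside, whereas the median member held 847. At the other edge, 43 members held exactly 2 UMIs of the dendritic cell genes, and 94 otherwise qualifying cells with 1 UMI were left out, 32 of them from VCD_Low_E2_P4. A further 162 cells met the dendritic cell criteria but held 5 or more C1q UMIs. As chosen, 259 members had a Flt3 UMI, 244 Cd209a, 166 Clec9a, 86 Xcr1 and 104 Ccr7.

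Genes outside the gate were compared with the other cells of the gland. Zbtb46, a transcription factor of conventional dendritic cells, stood at 42.6, 43.9 and 88.9 CPM on the Clec9a/Xcr1, Cd209a and Ccr7 sides and at 4.64 CPM in 815 C1q-positive macrophages. The 13 markers of C1q macrophages summed to 3793 CPM in the dendritic cells against 25163 CPM in those macrophages, and to 10003 CPM in the 25 members with no side. Monocyte markers were closer, at 906 CPM in the dendritic cells, 1090.4 CPM on the Cd209a side and 2330.2 CPM in the members with no side, against 1864 CPM in the macrophages, and plasmacytoid dendritic cell markers summed to 394 CPM against 722 CPM. B cell markers summed to 15.2 CPM, with Pax5 and Fcmr at 0, T cell markers to 47.9 CPM with Cd8b1 at 0, and neutrophil markers to 22.3 CPM, of which VCD_High_PBDE_E2_P4 held the most at 223 CPM. In VCD_Low_E2_P4 epithelial markers summed to 607 CPM and mast cell markers to 248 CPM, against at most 25.9 CPM of epithelial markers elsewhere. Fibroblast markers, which free RNA in a droplet can bring in, summed to 1232 CPM in the dendritic cells against 61131 CPM in fibroblasts.

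The share of dendritic cells among immune cells was 10.2% in VCD_Vehicle, 3.38% in VCD_Low_PBDE and 7.07% in VCD_High_PBDE. With E2 alone it was 5.91% without PBDE, 5.22% at the low dose and 10.6% at the high dose, and with E2 and P4 it was 6.98%, 6.02% and 12.1%. The groups overlapped: the 6 libraries with E2 averaged 7.80% ± 2.84 (SD, n = 6) and the 3 without hormone 6.87% ± 3.39 (SD, n = 3). The difference of 0.94 points had an exact two-sided permutation p of 0.519 over the 27 rearrangements of hormone labels within diets, of which 0.037 was the smallest possible. The mean of E2 alone and E2 with P4 against vehicle went both ways among the diets (-3.71, 2.24 and 4.28 points without, with low and with high PBDE). Averaged over diets, the difference was -0.73 points without VCD_High_PBDE and 3.26 points without VCD_Vehicle. A diet without its vehicle library gave no difference, so that whole diet dropped out. Low PBDE was below no PBDE at each of the 3 hormone levels, with differences of -6.77, -0.69 and -0.96 points in the order vehicle, E2 and E2 with P4, but 3 pairs cannot go below 0.25 in an exact permutation test, so none was made. The dendritic cell share of immune cells with high PBDE differed from that without PBDE by -3.08 points with vehicle. It lay 4.66 and 5.14 points above it with E2 and with E2 and P4. Outside the layout the shares were 7.69% in Intact, 4.0% in VCD_Vehicle_NormEnv and 3.48% in VCD_E2_ICI.

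**Figure D1:**
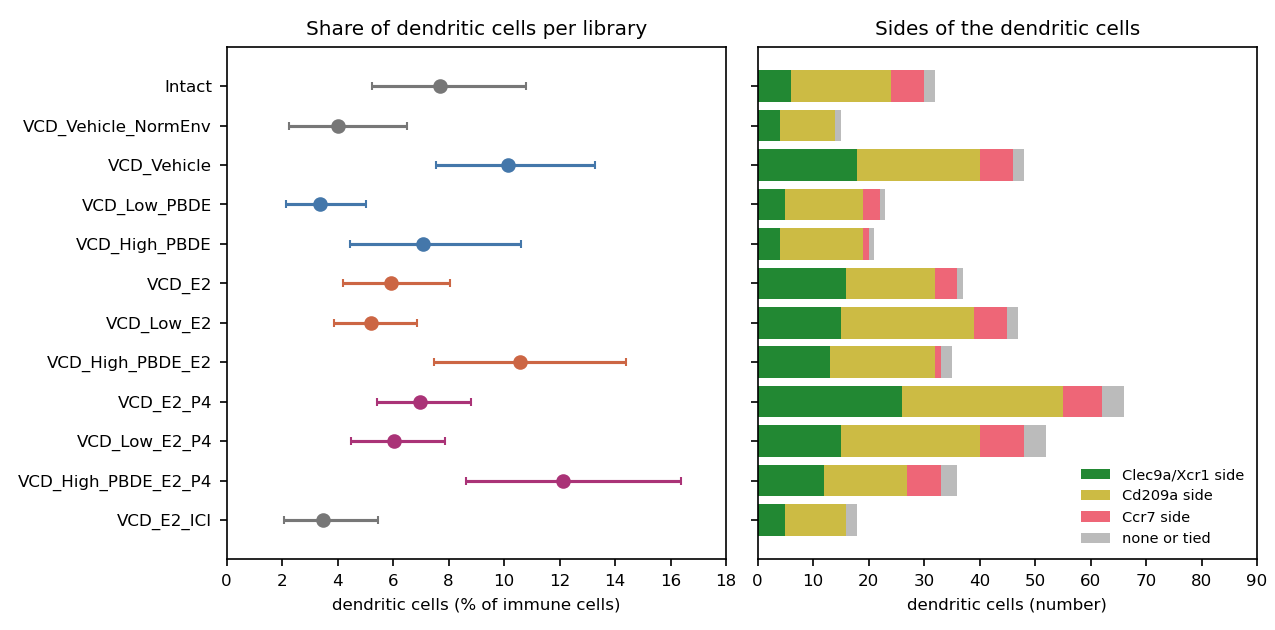
Left, dendritic cells as a percentage of immune cells in each of the 12 libraries, with exact 95% binomial intervals that cover counting error only; right, the number of dendritic cells per library, split into the Clec9a/Xcr1, Cd209a and Ccr7 sides and those with none or a tie. Points are blue for vehicle, orange for E2, purple for E2 with P4 and grey for the libraries outside the layout. Dendritic cells ranged from 3.38% to 12.1% of immune cells, and the Cd209a side was the largest or level with the largest in every library.

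The Clec9a/Xcr1 side made up a larger, and the Cd209a side a smaller, part of the dendritic cells in the libraries with E2 within each diet. The Clec9a/Xcr1 side held 37.5% of the dendritic cells in VCD_Vehicle, 21.7% in VCD_Low_PBDE and 19.05% in VCD_High_PBDE, and 43.2%, 31.9% and 37.1% with E2 in the same order of diets. With E2 and P4 the shares were 39.4%, 28.8% and 33.3%. Outside the layout the Clec9a/Xcr1 side held 18.75% in Intact, 26.7% in VCD_Vehicle_NormEnv and 27.8% in VCD_E2_ICI. Within the layout each library with E2 was above the vehicle library of its own diet, although the ranges overlapped across diets. The mean was 35.6% ± 5.28 (SD, n = 6) with E2 and 26.1% ± 9.97 (SD, n = 3) without, a difference of 9.55 points, at the smallest exact permutation p of 0.037 and at 0.0741 after adjustment over the 4 shares tested, which did not pass 0.05.

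The Cd209a side mirrored this, with 47.0% ± 4.95 (SD, n = 6) with E2 and 59.4% ± 12.9 (SD, n = 3) without, a difference of -12.3 points with the same exact p of 0.037 and adjusted 0.0741. Outside the layout the Cd209a side held 56.25% in Intact, 66.7% in VCD_Vehicle_NormEnv and 61.1% in VCD_E2_ICI. With E2 against vehicle in the layout, the Ccr7 side differed by 1.41 points with an exact permutation p of 0.852. The largest step was in the high-PBDE diet, where the Cd209a side went from 15 of 21 dendritic cells with vehicle to 19 of 35 with E2 and 15 of 36 with E2 and P4. Without VCD_High_PBDE, which takes the high-PBDE diet out of the comparison, the differences were 6.23 and -6.77 points. Requiring 2 UMIs for a side gave 6.14 points for the Clec9a/Xcr1 side, with VCD_E2_P4 (23 of 66 cells) then below VCD_Vehicle (18 of 48). With cells thinned to 3000 UMIs the differences were 14.7 and -7.51 points, and the Cd209a shares of VCD_Low_PBDE (10 of 15) and VCD_Low_E2 (18 of 27) were equal. No member of VCD_Vehicle_NormEnv (0 of 15) or VCD_E2_ICI (0 of 18) was on the Ccr7 side, which still allows shares of up to 21.8% and 18.5% (exact 95% binomial intervals).

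The Clec9a/Xcr1 and Cd209a sides differed in many genes that had no part in choosing them. In the 7 libraries with at least 10 cells on each side, compared within libraries by edgeR's quasi-likelihood test with Benjamini-Hochberg adjustment, 1690 of 7053 genes passed 0.05 (24%), of which 759 were higher on the Clec9a/Xcr1 side and 931 on the Cd209a side. These libraries were VCD_Vehicle and the 6 of the layout with E2, so the other groups had no part in this comparison. The gene lists used from here on were chosen with earlier results of these data known, so their counts are not independent support for the sides. Of a list of genes known for the first kind, 15 of 16 tested were higher on the Clec9a/Xcr1 side, with a median log2 difference of 2.78 against 0.03 over all genes. The exception, Batf3, a transcription factor that the first kind needs to develop, stood at a median of 100.05 CPM on the Clec9a/Xcr1 side and 67.4 CPM on the Cd209a side and did not pass (adjusted p = 0.122). Of the list for the second kind, 16 of 18 were lower on the Clec9a/Xcr1 side and 1, Clec12a, was higher, with a median log2 difference of -2.40. This list did not set the Cd209a side apart from C1q macrophages. Summed over its 20 genes, the level was 6027 to 8546 CPM on the Cd209a side in the 6 libraries with E2. In the macrophages of these libraries it was 8350 to 10672 CPM, and in VCD_Vehicle the levels were 8280 and 8662 CPM.

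Irf8, the transcription factor that fixes the identity of the first kind, had a lowest, median and highest level of 631, 937 and 1231 CPM over the 7 libraries on the Clec9a/Xcr1 side and 0, 21.1 and 145 CPM on the Cd209a side. The ranges did not overlap, and the log2 difference was 4.83 ± 0.40 (SE, adjusted p = 7.69e-08). Irf4, its counterpart in the second kind, ran the other way at 0, 5.40 and 38.1 CPM against 52.5, 114 and 182 CPM (log2 difference -3.59 ± 0.41, adjusted p = 3.01e-06). Tlr3, a sensor of double-stranded RNA, stood at 23.4 to 48.5 CPM on the Clec9a/Xcr1 side and at 0 to 2.46 CPM on the other.

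Other genes that led the Clec9a/Xcr1 side by size of difference were Gcsam (14.6 to 68.8 CPM against 0 in each of the 7 libraries), Itga3, Kit, which encodes a growth factor receptor (20.5 to 94.1 CPM against 0 to 7.04 CPM), Ly75, which encodes the uptake receptor DEC-205, Kif5a and Cystm1. Snx22 and Gpr82 had no UMI on the Cd209a side in any of these libraries and medians of 27.8 and 17.1 CPM on the Clec9a/Xcr1 side. Like Gcsam, they reached the count needed for testing through the Clec9a/Xcr1 side alone. The Clec9a/Xcr1 list also held Naaa (median 1010.4 against 236 CPM), Ppt1, a lysosomal enzyme (563 against 44.3 CPM), and Wdfy4, a protein that cross-presentation needs (394 against 76.9 CPM), each without overlap between the sides.

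The 10 genes with the largest differences toward the Cd209a side included the lectins Clec10a, Mgl2 and Cd209d. Clec10a, a galactose-binding lectin, stood at 353, 488 and 710 CPM there and at 0, 2.70 and 15.2 CPM on the Clec9a/Xcr1 side (log2 difference -6.47 ± 0.30, adjusted p = 7.24e-11). Mgl2, a related lectin, had medians of 602 against 0 CPM, and Cd209d, a close copy of Cd209a whose reads may be split with it, of 116 against 0 CPM. Sirpa, the receptor for the CD47 signal, had 72.1 to 126 CPM against 0 to 5.86 CPM. Flrt3, Sdc4, Il1rn, an antagonist of interleukin 1, Gbp5 and Abca9 completed the leading genes, with Retnla, whose level of 479.5 to 5728 CPM lay below the pooled 19146 CPM of C1q macrophages. Fibroblast markers summed to 768 CPM on the Clec9a/Xcr1 side and 1657 CPM on the Cd209a side, all 6 of them passed as lower on the Clec9a/Xcr1 side, and their part in the differences was not tested.

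**Figure D2:**
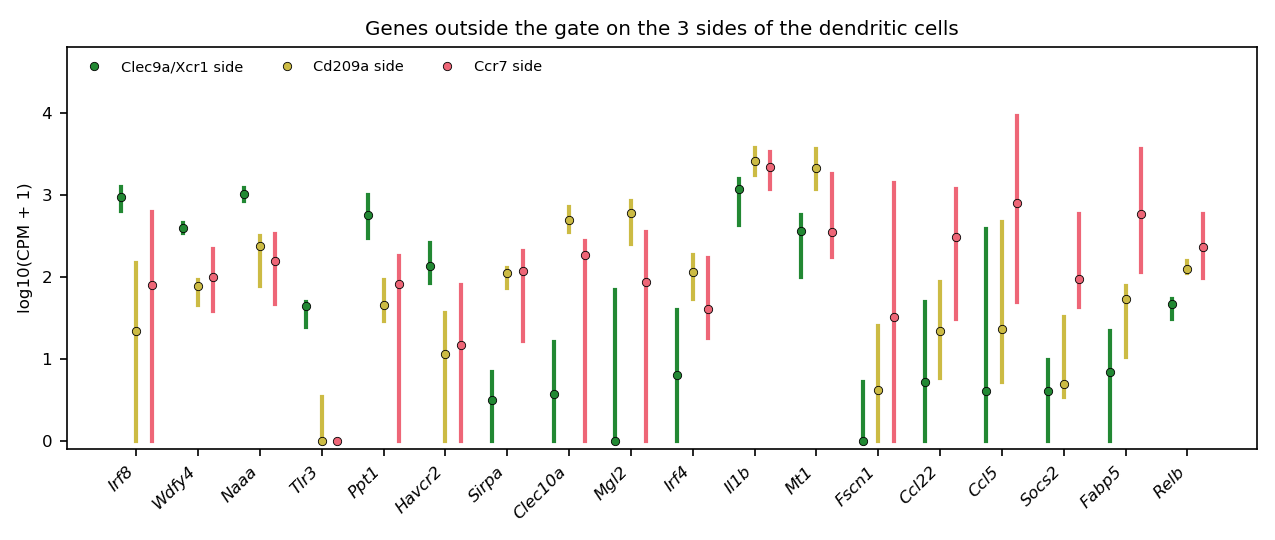
Levels of 18 genes outside the gate on the 3 sides, as log10 of CPM plus 1, where points are medians and lines run from the lowest to the highest library (7 libraries for the Clec9a/Xcr1 and Cd209a sides, 8 for the Ccr7 side). Irf8, Irf4 and Clec10a separated the Clec9a/Xcr1 and Cd209a sides without overlap, and Ccl5 on the Ccr7 side ran from 47.8 to 9062 CPM.

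Both presentation pathways were present on both sides, with different parts of them higher. Of 16 genes of MHC class I presentation, 7 were higher on the Clec9a/Xcr1 side and 4 were lower. The 7 were the immunoproteasome genes Psmb8 and Psmb9, the proteasome activators Psme1 and Psme2, the peptide transporters Tap1 and Tap2, and Pdia3, a member of the loading complex. Psmb9 stood at 369, 449 and 591 CPM against 70.4, 115.5 and 160.1 CPM (log2 difference 2.02 ± 0.14, adjusted p = 1.21e-08), and Tap2 at 120.5, 149.8 and 168 CPM against 35, 48.1 and 88.7 CPM.

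The 4 lower genes were the class I chains H2-K1 and H2-D1, their partner B2m and the chaperone Canx. H2-K1 had a median of 1050.4 CPM on the Clec9a/Xcr1 side and 1876 CPM on the Cd209a side, a log2 difference of -0.72 ± 0.09 (adjusted p = 1.64e-05).

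Of 16 MHC class II genes outside the gate, 4 were higher (Cd9, H2-Ob, Rfxap and March1) and 4 lower (Ctss, Ifi30, Lgmn and H2-DMb2) on the Clec9a/Xcr1 side. Ctss, a protease that trims the invariant chain, stood at 283, 351 and 599 CPM against 780.5, 1065 and 1264 CPM (log2 difference -1.43 ± 0.15, adjusted p = 1.57e-06), and Ifi30, a lysosomal reductase, at 337 against 950.1 CPM by median. H2-Ob, part of a brake on peptide loading, had a median of 158 CPM against 42.2 CPM. H2-Eb1, a class II chain itself, had medians of 9388 and 10630.5 CPM, and its adjusted p was 0.196.

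Between these 2 sides, inflammatory genes stood mostly with the Cd209a side. Of 23 cytokine and chemokine genes tested, 12 were lower on the Clec9a/Xcr1 side and 2, Il18 and Cxcl9, were higher. In the 6 libraries with E2 the whole list summed to 5453 to 7452 CPM on the Cd209a side. C1q macrophages of these libraries were higher, at 9941 to 14637 CPM. Il1b, which encodes interleukin 1 beta, stood at 428, 1159 and 1537 CPM on the Clec9a/Xcr1 side and 1725, 2596 and 3678 CPM on the Cd209a side, without overlap. Ccl9, a chemokine, had medians of 12.1 and 904.7 CPM. Of 14 pattern recognition genes 9 were lower and only Tlr3 was higher, with Clec4e, a receptor for cell-wall lipids and dead cells, at 0 to 14.5 CPM against 24.6 to 198 CPM. Among costimulatory and checkpoint genes, 6 of 13 were lower and 2 higher, Cd40 being lower with a median of 26.4 against 124 CPM. The immediate early and heat shock list, which also moves with dissociation of tissue, had 16 of 28 lower and 2 higher. Markers of other myeloid cells were lower on the Clec9a/Xcr1 side as well, C1q macrophage markers with 5 of 8 lower and none higher (Adgre1, Cd163, Csf1r, Lyz2 and Mrc1, list median -2.28) and monocyte markers with 4 of 7 lower and 1 higher (median -1.03). The part of these lists in the differences was not tested.

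The Ccr7 side was small in each library, and no library held 10 such cells. It was set against the mean of the other 2 sides in the 8 libraries with at least 3 cells on each side, a limit chosen after the counts were seen. Here 536 of 7213 genes passed 0.05 in edgeR's quasi-likelihood test (7.43%), 269 higher and 267 lower, while the median over all genes was -0.18. Of the genes listed for mature, migrating dendritic cells 19 of 20 were higher, with a median log2 difference of 2.41, and the other, Cd274, which encodes the checkpoint ligand PD-L1, had pooled levels of 16.5, 19.6 and 43.1 CPM on the Clec9a/Xcr1, Cd209a and Ccr7 sides (adjusted p = 0.429).

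Fscn1, which bundles actin in migrating dendritic cells, had pooled levels of 1.102, 4.75 and 269.6 CPM on the Clec9a/Xcr1, Cd209a and Ccr7 sides. Its level on the Ccr7 side ran from 0 to 1389 CPM among the 8 libraries with a median of 31.5 CPM, so a few libraries held most of it (log2 difference 5.73 ± 0.49, adjusted p = 8.1e-09). Fabp5, a fatty acid binding protein, was detected on the Ccr7 side in all 8 libraries, at 113, 579 and 3576 CPM, against at most 76.1 CPM on the Cd209a side. Socs2, a brake on cytokine signalling, stood at 42.3, 93.9 and 580.0 CPM on the Ccr7 side and at 31.5 CPM or less on the Cd209a side.

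The 8 cytokine and chemokine genes called higher on this side were Ccl3, Ccl5, Ccl9, Ccl17, Ccl22, Cxcl16, Ebi3 and Il12b. Ccl5 ran from 47.8 to 9062 CPM on the Ccr7 side with a median of 800.5 CPM, and Ccl22 from 29.8 to 1159.9 CPM with a median of 304 CPM, against medians of 22.2 and 21.1 CPM on the Cd209a side. Both ranges were wide, and that of Ccl5 overlapped the 465 CPM reached on the Cd209a side. Il12b, a subunit of interleukins 12 and 23, had a pooled level of 101 CPM on the Ccr7 side, 14.7 CPM on the Clec9a/Xcr1 side and 0 on the Cd209a side. Mreg, Cacnb3, Fxyd2 and Ankrd33b completed the 10 genes with the highest differences.

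The cytokine and chemokine calls were 8 of 24 genes tested, with none lower, and 3 of 13 costimulatory genes (Cd40, Cd83 and Tnfsf9) were higher on the Ccr7 side and none lower. Cd40, the receptor for T cell help, had pooled levels of 19.8, 120.0 and 179 CPM on the 3 sides. Cell cycle genes went the other way, with 10 of 28 lower and none higher. Top2a, a marker of dividing cells, had pooled levels of 114, 98.9 and 11.1 CPM (log2 difference -3.07 ± 0.50, adjusted p = 0.000111). Median depth per cell was 18740 UMIs on the Clec9a/Xcr1 side, 13909 on the Cd209a side and 14409 on the Ccr7 side.

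Nfkb2, Rel, Nfkbia and Tnip1, which belong to the NF-kB pathway or restrain it, were higher on the Ccr7 side and are given here because their promoters held the motif searched for, so they were picked after their values were seen, and no list of the pathway was tested. The log2 differences were 1.15 ± 0.21 (SE) for Nfkb2, 1.19 ± 0.12 for Rel, 1.26 ± 0.11 for the inhibitor Nfkbia and 1.46 ± 0.37 for Tnip1, with adjusted p of 0.000364, 6.36e-08, 8.75e-09 and 0.0114. Promoters were searched for a 10-base NF-kB motif on both strands within the 250 bases before a start, where RefSeq promoters matched 215 of the 269 higher genes. The motif was held by 12 of 290 promoters of the higher genes (4.14%), 2 of 249 of the lower genes (0.803%), 96 of 7212 of the genes tested (1.33%) and 322 of 32851 in all (0.980%). The 12 belonged to Anxa4, B2m, Dhrs3, Il21r, Mif4gd, Nfkb2, Nfkbia, Procr, Rel, Tnip1 and Tnip3. Promoter stretches of the 4 genes with log2 differences above are shown because they carry this match, with its letters in capitals, 5′ to 3′ on the gene's strand and in build GRCm38.p6.
Nfkb2, first promoter, chr19:46304638-46304736, plus strand: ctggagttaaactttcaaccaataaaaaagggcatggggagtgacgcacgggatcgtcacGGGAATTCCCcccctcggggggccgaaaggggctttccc
Nfkb2, second promoter, chr19:46305680-46305774, plus strand: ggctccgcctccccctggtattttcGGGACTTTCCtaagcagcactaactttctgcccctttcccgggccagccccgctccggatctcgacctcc
Rel, chr11:23770992-23771121, minus strand: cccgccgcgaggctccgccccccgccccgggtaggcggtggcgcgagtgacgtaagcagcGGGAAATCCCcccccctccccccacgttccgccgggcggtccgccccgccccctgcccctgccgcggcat
Nfkbia, chr12:55492648-55492736, minus strand: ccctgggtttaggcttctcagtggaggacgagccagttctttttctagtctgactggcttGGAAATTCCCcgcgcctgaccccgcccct
Tnip1, chr11:54962941-54963057, minus strand: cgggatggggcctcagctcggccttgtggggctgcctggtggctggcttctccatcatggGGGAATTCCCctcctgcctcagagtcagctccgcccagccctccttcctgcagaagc
A match is a run of letters and not a measured binding site.

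**Figure D3:**
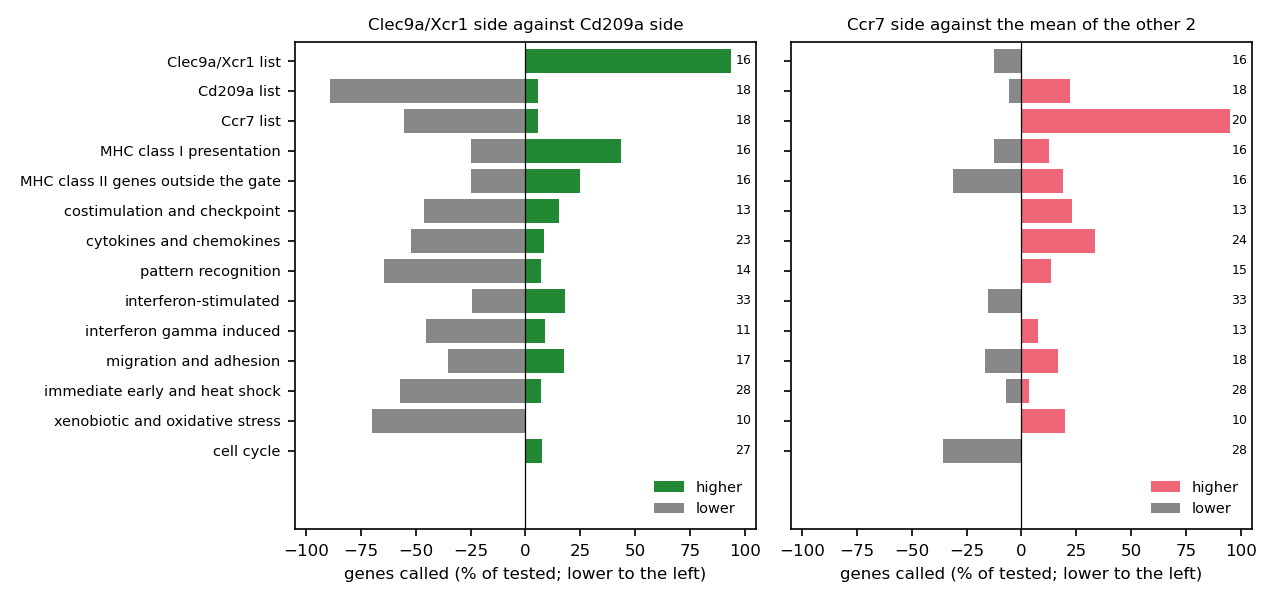
For each gene list, the percentage of the genes tested that were higher (to the right) or lower (to the left) on the Clec9a/Xcr1 side against the Cd209a side and on the Ccr7 side against the other 2, with the number of genes tested at the right edge and lower genes in grey. The side lists pointed to their own sides (15 of 16, 16 of 18 and 19 of 20 genes), and cell cycle genes were lower on the Ccr7 side (10 of 28). The lists were chosen with earlier results of these data known.

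Whether estradiol changed the dendritic cells was asked over all of them, with the 6 libraries given E2, alone or with P4, against the 3 with vehicle. Of 8338 genes tested, 10 passed 0.05 in edgeR's quasi-likelihood test (0.12%), 4 higher with E2 and 6 lower. The higher genes were Irf7, Ifi27l2a and Ifitm3, which respond to interferon, and Ly6a. The lower genes were the metallothioneins Mt1 and Mt2, the glycolytic enzyme Hk2, the chemokine Ccl17, the integrin chain Itgae and Pqlc1.

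Irf7, on chromosome 7 (141262706 to 141266481, GRCm38), encodes the transcription factor that amplifies type I interferon responses. Its level was 16.2 CPM in VCD_Vehicle, 1.99 CPM in VCD_Low_PBDE and 6.72 CPM in VCD_High_PBDE. The dendritic cells of VCD_Low_PBDE and VCD_High_PBDE held 501746 and 297740 UMIs in all. These levels therefore rest on very few Irf7 UMIs, which leaves the size of the difference uncertain. With E2 the Irf7 level was 67.3, 93.2 and 79.2 CPM in the same order of diets, and with E2 and P4 it was 113, 174 and 60.4 CPM. All 6 libraries with E2 were above all 3 without, with a log2 difference of 3.30 ± 0.43 (SE, edgeR adjusted p = 0.00563). Outside the layout Irf7 stood at 18.2 CPM in Intact, 49.0 CPM in VCD_Vehicle_NormEnv and 27.1 CPM in VCD_E2_ICI, where exact 95% Poisson intervals for counting error ran from 9.11 to 32.6, 25.3 to 85.6 and 12.4 to 51.4 CPM. The intervals of all 3 overlapped one another, and only that of VCD_Vehicle_NormEnv reached the lowest level with E2.

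Ifi27l2a stood at 763, 407 and 440.0 CPM in the vehicle libraries without, with low and with high PBDE, at 1143, 1365 and 714 CPM with E2 and at 1502, 1617 and 775 CPM with E2 and P4. The groups overlapped across diets but not within them (log2 difference 1.11 ± 0.18, adjusted p = 0.0371). Ifitm3, an interferon-induced membrane protein, ran from 998 to 1590.0 CPM with vehicle and from 1561 to 2632 CPM with E2 (0.78 ± 0.14, adjusted p = 0.0469). In VCD_E2_ICI the levels were 316 CPM for Ifi27l2a and 1943 CPM for Ifitm3, and in Intact 1284 and 1526 CPM.

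The interferon-stimulated genes stood higher with E2 as a list. Of 34 tested, 33 had a positive difference and 3 passed (Irf7, Ifi27l2a and Ifitm3), with a median log2 difference of 1.102 against -0.01 over all genes. Summed over the 37 genes of the list present in the files, levels were 3713, 2455 and 2532 CPM with vehicle, 4796, 6243 and 3909 CPM with E2 and 5747, 7415 and 4800.0 CPM with E2 and P4. Within the layout the lowest library with E2, VCD_High_PBDE_E2, lay above the highest vehicle library, VCD_Vehicle. Outside it the order did not hold, with VCD_Vehicle_NormEnv at 4106 CPM, above VCD_High_PBDE_E2, VCD_E2_ICI at 3332 CPM and Intact at 3908 CPM. Plasmacytoid dendritic cell markers stood higher with E2 in each diet too, summing to 276, 134 and 185 CPM with vehicle, 339, 618 and 253 CPM with E2 and 758, 363 and 487 CPM with E2 and P4, although Bst2 stands in both lists. Siglech, which defines those cells, was at 0 to 1.25 CPM with vehicle and 0 to 21.7 CPM with E2. Of these 8 markers 2, Bst2 and Tcf4, had enough counts to test, both positive and neither passing (median 1.05), and their part in the interferon levels was not tested. Members that did not pass included Bst2, a tether of budding viruses, at 89.7 to 165 CPM with vehicle and 171 to 470.2 CPM with E2, and Ifit1, at 12.5, 41.9 and 47.0 CPM with vehicle and 0 to 50.02 CPM with E2.

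**Figure D4:**
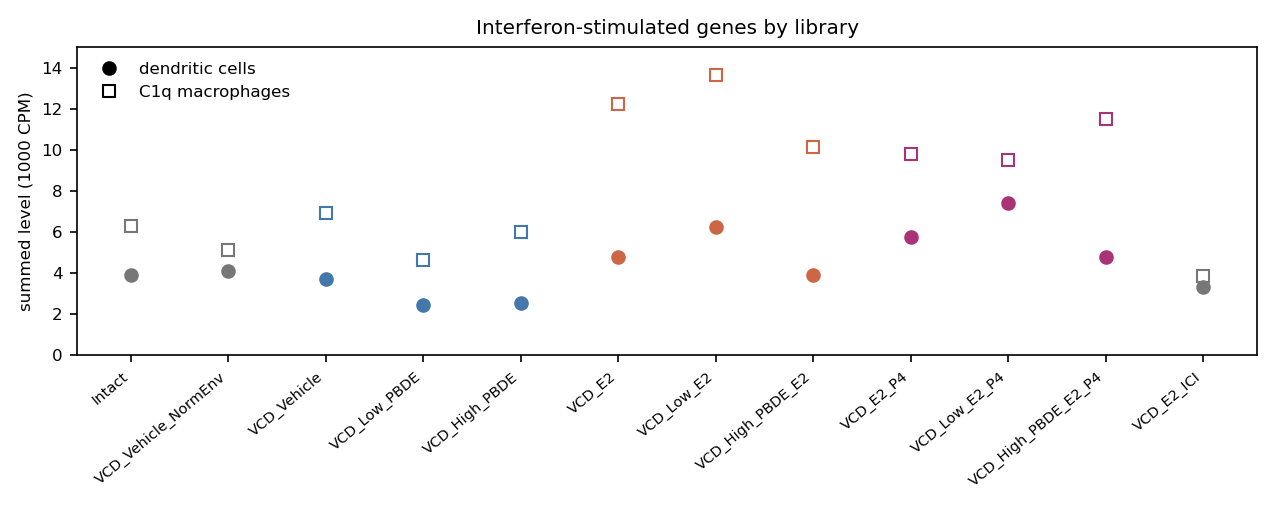
Summed level of 37 interferon-stimulated genes, in units of 1000 CPM, in the dendritic cells (filled circles) and in the C1q macrophages (open squares) of each of the 12 libraries, in blue for vehicle, orange for E2, purple for E2 with P4 and grey for the libraries outside the layout. In both cell types the 6 libraries with E2 in the layout were above its 3 vehicle libraries, and VCD_E2_ICI was at 3332 CPM in dendritic cells and 3855 CPM in macrophages.

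The same list in C1q macrophages had 37 of 37 genes positive, with a median log2 difference of 0.82 against 0.01 over all genes. On the Cd209a side alone, 23 of 29 genes tested were positive with a median of 0.79 and none passed. On that side the sums were 5339.6, 2777 and 3666 CPM with vehicle and 4897 to 8220.1 CPM with E2, which overlapped, and on the Clec9a/Xcr1 side they were 2239.8, 1371 and 792 CPM (18, 5 and 4 cells) and 2733 to 6589.6 CPM, which did not. In the test of the difference between dendritic cells and macrophages, Irf7, Ifi27l2a and Ifitm3 did not pass (adjusted p = 0.770, 0.988 and 0.931). Counting VCD_Vehicle_NormEnv as a second vehicle ended all 10 E2 calls, with 33 of 34 interferon genes still positive and a median of 0.99. A covariate for a tag in the file names also ended all 10 calls, 1 other gene passing, with 31 of 34 interferon genes positive and a median of 0.69, but within the hormone and diet layout the tag term rests on VCD_Low_PBDE and comes close to leaving that library out, where Irf7 differed by 2.64 and the list median was 0.695. Of the 10 genes, only Irf7 passed with each of the 9 libraries left out in turn, while Ifi27l2a was lost without VCD_E2, VCD_E2_P4, VCD_Low_E2 or VCD_High_PBDE and Ifitm3 without any 1 of 6 libraries.

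Ly6a, a surface antigen that fibroblasts also carry, stood at 24.98, 31.9 and 30.2 CPM with vehicle and 48.3 to 184 CPM with E2, without overlap (log2 difference 1.48 ± 0.25, adjusted p = 0.038), and its call was lost without any 1 of 8 libraries. Free fibroblast RNA, estimated from fibroblast markers at 0.575% to 4.85% of the dendritic cells' UMIs, was highest in VCD_Low_E2_P4 and VCD_High_PBDE_E2 and would by itself amount to 33.0% to 162% of the Ly6a level in the 9 libraries. The same estimate came to at most 16.0% of the level of Irf7, 6.21% of Ifi27l2a and 5.21% of Ifitm3. Fibroblast markers as a list had 5 of 6 positive with E2 and a median of 1.52, with none passing.

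Mt1 and Mt2, neighbouring genes on chromosome 8 (94179082 to 94180327 and 94172664 to 94173568), encode metallothioneins, which bind zinc and copper. Mt2 was at 476, 725 and 480.3 CPM with vehicle, 224, 324 and 262 CPM with E2 and 227, 187 and 102 CPM with E2 and P4. All 6 libraries with E2 lay below the 3 without, and the log2 difference was -1.37 ± 0.18 (SE, adjusted p = 0.00563). Mt1 was at 1759.9, 2418 and 2032 CPM with vehicle and 549 to 1651 CPM with E2 (-0.94 ± 0.16, adjusted p = 0.0465). Neither VCD_Vehicle_NormEnv (139 CPM of Mt2 and 964 CPM of Mt1) nor VCD_E2_ICI (84.2 and 517 CPM) reached the vehicle libraries, and Intact had 322 and 1378 CPM. Both genes fell on the Cd209a side alone as well (-1.27 ± 0.18 for Mt2, adjusted p = 0.0149, and -0.89 ± 0.13 for Mt1, adjusted p = 0.0176). Over all dendritic cells Mt2 was not called without VCD_Low_PBDE or without VCD_High_PBDE, and Mt1 without any 1 of 5 libraries.

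In C1q macrophages Mt2 had medians of 296 CPM with E2 and 283 CPM with vehicle, and the difference between the cell types passed (dendritic cells minus macrophages -1.10 ± 0.20, adjusted p = 0.0374). That call was lost under DESeq2, with at least 20 counts in 3 sums, and without VCD_Vehicle, VCD_E2, VCD_Low_PBDE, VCD_Low_E2_P4 or VCD_High_PBDE. For Mt1 the difference between the cell types did not pass (-0.54 ± 0.16, adjusted p = 0.486). In all, 4 of 10066 genes passed that test of the difference (0.0397%), and Clec4n, Mmp12 and Ifit1 were the others. Of the 16 tested genes listed as glucocorticoid and progesterone targets, which include Mt1 and Mt2, the other 14 did not pass, and 4 of the 16 were positive.

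Hk2, hexokinase 2, was at 102, 143 and 111 CPM with vehicle and 39.7 to 76.1 CPM with E2 (-1.12 ± 0.20, adjusted p = 0.0496), with 123 CPM in VCD_Vehicle_NormEnv and 18.04 CPM in VCD_E2_ICI. Pqlc1 was at 80.6 to 89.7 CPM with vehicle and 28.1 to 49.3 CPM with E2 (-1.15 ± 0.19, adjusted p = 0.038). For both, no library with E2 reached a vehicle library of the layout, but Hk2 was lost without any 1 of 7 libraries and Pqlc1 without any 1 of 9.

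Ccl17 and Itgae rested on 1 or 2 libraries. Ccl17 was at 261 CPM in VCD_Vehicle, 357 CPM in VCD_Low_PBDE and 16.8 CPM in VCD_High_PBDE, and at 7.04 to 24.2 CPM with E2, so that the groups overlapped (-3.91 ± 0.47, adjusted p = 0.00563). It was at 241 CPM in VCD_E2_ICI, 4.98 CPM in Intact and 0 in VCD_Vehicle_NormEnv. Without VCD_Low_PBDE it did not pass. Itgae, which encodes the integrin CD103, had 68 of its 78 vehicle UMIs in VCD_Vehicle, at 84.9 CPM, with 14.0 and 10.1 CPM in the other two vehicle libraries and 0 to 8.87 CPM with E2, and did not pass without VCD_Vehicle or without VCD_E2.

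**Figure D5:**
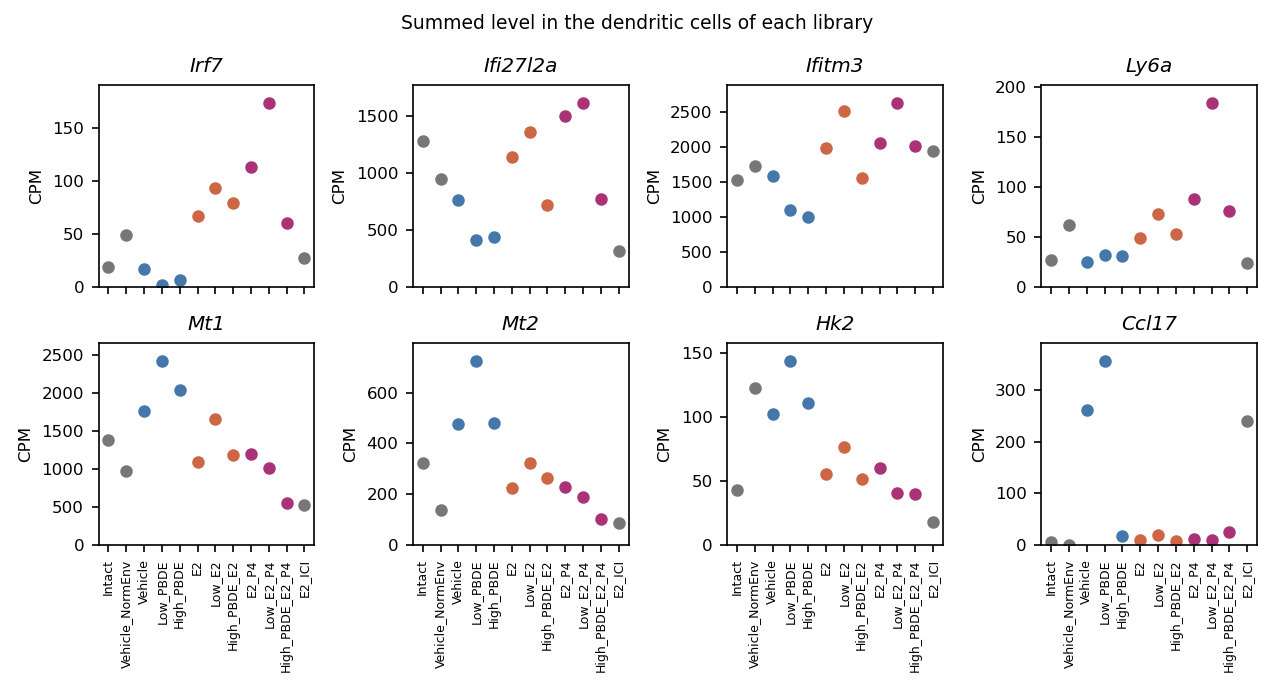
Levels of 8 of the 10 genes called between E2 and vehicle, as CPM in the dendritic cells, with 1 point per library, in blue for vehicle, orange for E2, purple for E2 with P4 and grey for the libraries outside the layout. Irf7 was at 60.4 CPM or more in the 6 libraries with E2 and at 16.2 CPM or less in the 3 vehicle libraries of the layout, while Ccl17 was above 200 CPM only in VCD_Vehicle, VCD_Low_PBDE and VCD_E2_ICI.

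Lists of the dendritic cells' main tasks are given beside the 0.12% of all genes called with E2, a share at which lists of this size hold almost no calls either way. None of 16 MHC class II, 16 class I, 13 costimulatory and 16 pattern recognition genes passed, with median log2 differences of -0.07, 0.14, -0.13 and 0.02. Of 24 cytokine and chemokine genes only Ccl17 passed, and of 27 cell cycle genes none did (median -0.01). None of 11 genes of xenobiotic and oxidative stress passed, with 2 positive and a median of -0.51. Of 10 receptors for steroids, thyroid hormone and dioxin only Nr3c1 and Ahr had enough counts to test. Esr1, which encodes estrogen receptor alpha, was at 0 to 9.68 CPM in the 12 libraries, with 6 UMIs in the library where it was highest.

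Progesterone added to E2 was asked as the 3 libraries with E2 and P4 against the 3 with E2 alone. Of 8338 genes 2 passed (0.024%). Lst1, a leukocyte membrane protein, rose from 13.2, 34.3 and 15.8 CPM with E2 to 63.1, 126 and 98.4 CPM with E2 and P4 (log2 difference 2.13 ± 0.31, adjusted p = 0.039), without overlap. Hilpda, a lipid droplet protein induced by low oxygen, fell from 169.6, 145 and 158 CPM to 33.5, 71.0 and 34.5 CPM (-1.83 ± 0.27, adjusted p = 0.039). The libraries outside the layout spread widely, Lst1 being at 135 CPM in VCD_Vehicle_NormEnv and 90.2 CPM in VCD_E2_ICI, neither of which received P4.

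The genes with the next lowest p, C3, Hp and Gngt2, did not pass (adjusted p = 0.0557, 0.062 and 0.062). C3, a complement component, was at 16.1, 24.6 and 17.6 CPM with E2 and 41.4, 87.1 and 55.2 CPM with E2 and P4. Hp, haptoglobin, was at 0 to 2.14 CPM with E2 and 16.8 to 32.8 CPM with P4 added, but at 98.1 CPM in VCD_Vehicle_NormEnv and 96.2 CPM in VCD_E2_ICI. The calls of Lst1 and Hilpda were lost on the Cd209a side alone, where none passed, with VCD_Vehicle_NormEnv as a second vehicle, with at least 20 counts in 3 libraries, and without VCD_E2, VCD_Low_E2_P4, VCD_High_PBDE, VCD_High_PBDE_E2 or VCD_High_PBDE_E2_P4, and that of Hilpda also without VCD_E2_P4. Monocyte markers summed to 518, 986 and 591 CPM with E2 and 1215, 1151 and 1358 CPM with E2 and P4 in the order of diets, with 8 of 9 positive and a median of 0.59, and their part in the levels of Lst1, C3 and Hp was not tested. Among the lists, 18 of 20 genes of the Ccr7 side were positive with P4 (median 0.67) and 6 of 27 cell cycle genes (median -0.53), with none passing in either. The summed Ccr7 list went from 2446 to 2336 CPM without PBDE, from 2603 to 3219 CPM with low PBDE and from 2152 to 5297 CPM with high PBDE, where the Ccr7 side was 1 of 35 dendritic cells with E2 and 6 of 36 with E2 and P4.

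Low PBDE against no PBDE gave no gene past 0.05 of 8338 (0%) by edgeR, with 461 genes at an unadjusted p under 0.05 and 3 genes past 0.05 by DESeq2. The 5 genes with the lowest p were F13a1, Sdc4, Fos, Trim35 and Cadm1, with adjusted p from 0.0647 to 0.123. F13a1, a coagulation factor that macrophages carry at about 920 CPM, was at 13.7, 7.31 and 15.8 CPM without PBDE and 81.7, 28.9 and 45.2 CPM with low PBDE, in the order vehicle, E2 and E2 with P4. Cadm1, an adhesion molecule of the Clec9a/Xcr1 side, was at 141, 73.1 and 101 CPM without and 23.9, 38.6 and 48.4 CPM with low PBDE. The Clec9a/Xcr1 side's share of the dendritic cells was also lower with low PBDE at each hormone level, with differences of -15.8, -11.3 and -10.5 points, and its part in the Cadm1 levels was not tested. Interferon-stimulated genes had 28 of 34 positive with a median of 0.47 and none passing, but their summed level with low PBDE was below that without PBDE with vehicle (2455 against 3713 CPM) and above it with E2 (6243 against 4796 CPM) and with E2 and P4 (7415 against 5747 CPM). VCD_Low_PBDE and the layout's libraries without PBDE carried the first of 2 tags in the file names. VCD_Low_E2 and VCD_Low_E2_P4 carried the second, so within the low-PBDE diet E2 and tag cannot be told apart.

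High PBDE against no PBDE gave 6 genes of 8338 (0.072%), all lower. AY036118 was at 175, 250.02 and 287 CPM without PBDE and 6.72, 21.1 and 13.8 CPM with high PBDE, in the same order of hormones (log2 difference -4.06 ± 0.29, adjusted p = 1.15e-05). Gm42418, which overlaps it on chromosome 17 (39846958 to 39848788) in a stretch of ribosomal RNA sequence, was at 1927, 1076 and 2618 CPM and 393, 461 and 368 CPM (-2.12 ± 0.28, adjusted p = 0.0116). In C1q macrophages AY036118 had a median of 174 CPM without and 12.7 CPM with high PBDE, and Gm42418 of 1966 and 631 CPM. VCD_E2_ICI, which received no PBDE, was as low in dendritic cells, at 9.02 CPM of AY036118 and 400.0 CPM of Gm42418. By contrast, VCD_Vehicle_NormEnv, listed with no PBDE dose and with the same file name tag as the high-PBDE libraries, was at 85.8 and 1079 CPM. Intact was at 221 and 1581 CPM.

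Others among the 6 were Hist1h2ap, a histone gene (256, 208 and 267 CPM without and 3.36, 54.5 and 10.4 CPM with high PBDE), Lars2, a mitochondrial leucyl-tRNA synthetase (130, 35.1 and 70.0 CPM against 16.8, 10.6 and 24.2 CPM), and Gm10073. The call of Hist1h2ap was lost when members above 40000 UMIs were left out and without VCD_Vehicle, VCD_E2_P4, VCD_High_PBDE or VCD_High_PBDE_E2_P4. That of Lars2 was lost with the same limit, with VCD_Vehicle_NormEnv as a second vehicle and without VCD_Vehicle, VCD_E2_P4, VCD_High_PBDE or VCD_High_PBDE_E2, that of Gm42418 without VCD_High_PBDE, and that of Gm10073 with the same limit, on the Cd209a side alone and without any 1 of 5 libraries. All 3 high-PBDE libraries carried the second of 2 tags in the file names and all 3 libraries without PBDE the first, so in these 6 libraries tag and diet cannot be told apart. A fit with the tag as a covariate rests on VCD_Low_PBDE alone, the 1 library whose tag differs from the others of its diet, and cannot settle which differences go with the diet; in it 3 genes passed, of which only AY036118 was among the 6. AY036118 passed in every alternative run, with each library left out included. Genes that respond to dioxin-like compounds or oxidants gave no call with high PBDE: of 11 tested, 6 were positive with a median of 0.06, and Cyp1b1 was at 5.18 CPM or less in all 12 libraries. MHC class II, MHC class I and costimulatory genes gave no call either, with medians of 0.01, -0.05 and -0.16.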

How the data were processed

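Gene by cell counts of UMIs were deposited by the authors for 12 libraries of the 10x Chromium 3′ v3 chemistry, with 27998 genes. The submitters' processing notes name Cell Ranger 3.1.0 and mm10. The deposited matrices held 58620 barcodes, and those with at least 500 genes, 1000 UMIs and at most 5% mitochondrial UMIs were kept. No doublet caller was run, and 8 dendritic cells held over 40000 UMIs. The members and gene lists were chosen with earlier results of these data known. Immune cells held at least 5 UMIs of Ptprc, Cd52, Laptm5 and Coro1a and none of Pdgfra. C1q macrophages held at least 5 C1q UMIs and fewer than 2 of the dendritic cell genes.

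UMI counts were summed over the dendritic cells of a library and tested with edgeR 4.0.16 (R 4.3.3): quasi-likelihood test, TMM scaling, genes with at least 5 counts in 3 sums, Benjamini-Hochberg adjustment over all genes tested, threshold 0.05. The 9-library model held hormone and PBDE level additively, with 4 residual degrees of freedom. The 16 genes used in gates were left out of the side fits and of the comparison with macrophages. The 9-library fit did not leave them out, and none of them was among the genes it called. The comparison with macrophages used the library as a block and the cell type by treatment terms. In the 9-library model, p-values rest on departures from additivity, where an interaction of hormone and PBDE cannot be told from noise. In the side fits they rest on the spread of differences within libraries. In the comparison with macrophages they rest on departures of such differences from additivity. The animals behind the libraries are not given. The sides were to be compared in 1 model over libraries with at least 10 cells of each, but no library had 10 on the Ccr7 side, so the Ccr7 comparison was added with at least 3 cells. Shares were compared by an exact two-sided permutation test over all rearrangements. Intervals were computed with scipy 1.17.1 and cover counting error only. Named genes were the called ones, at most 10 per direction by log2 difference, with the 5 lowest p-values where fewer than 5 were called. Genes with a predicted name only were counted, and Gm42418 and Gm10073 were named after their values were seen because only 6 genes were called; Gm42418, AY036118 and Gm10073 are also features whose reads can map elsewhere. Coordinates are of GENCODE M21 (GRCm38) and promoters of RefSeq. Free fibroblast RNA was taken as the ratio of the summed fibroblast markers in dendritic cells to that in fibroblasts of the same library. File names carry 2 tags, on 5 and 7 libraries, whose meaning is not given in the sources used here. Alternatives were DESeq2 1.42.0, other scaling, filters, gates and depths, the tag as a covariate, VCD_Vehicle_NormEnv as a second vehicle, and leaving out each library. The tests were checked on simulated data. A gene among those called with high PBDE and a cell type marker are not reported here.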

Additional observations from a re-analysis of the deposited data

Results flagged for a closer look

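The difference between dendritic cells and C1q macrophages in their response to E2 passed edgeR's quasi-likelihood test for 4 genes, each with the more negative response in dendritic cells. Mt2 differed by -1.10 on the log2 scale (adjusted p = 0.0374), with 102 to 324 CPM with E2 and 476 to 725 CPM with vehicle in dendritic cells. Clec4n, the receptor dectin-2, differed by -3.69 (adjusted p = 0.00797), with a median of 5.80 CPM with E2 and 17.9, 32.5 and 50.4 CPM with vehicle in dendritic cells, against 61.0 CPM with E2 and 12.7, 18.5 and 19.6 CPM with vehicle in macrophages. Ifit1, an interferon-induced gene, differed by -3.66 (adjusted p = 0.00691), with medians with E2 of 8.08 CPM in dendritic cells and 45.7 CPM in macrophages and vehicle levels of 12.5, 41.9 and 47.0 CPM and of 2.32, 18.1 and 44.5 CPM. Mmp12, a macrophage metalloelastase, differed by -10.18 (adjusted p = 1.34e-06). All 81 Mmp12 UMIs of vehicle dendritic cells came from VCD_Vehicle, and with E2 there was 1 UMI. Without VCD_Vehicle none of the 4 genes passed, and DESeq2 called none.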

How the results depend on the processing

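Replicate numbers could not pair libraries across treatments, because each group had 1 library. The sides and the 2 cell types were compared within libraries, and shares within diets. With few libraries, counts of genes called moved more than directions. No named gene that passed in the main run or in an alternative changed sign between them. Sign changes among genes that passed in neither were not followed one by one. The interferon-stimulated list had 33 of 34 genes positive in the main run and 31 of 34 with the file name tag as covariate. In the order E2 (10), P4 (2), low PBDE (0) and high PBDE (6), DESeq2 called 17, 4, 3 and 10 genes and no filter on low counts 133, 180, 86 and 122. With at least 20 counts in 3 libraries E2 gave 2 and P4 0. With VCD_Vehicle_NormEnv as a second vehicle E2 gave 0, P4 0 and low PBDE 1. With the file name tag as covariate, which rests on VCD_Low_PBDE, the counts were 1, 8, 4 and 3. A mitochondrial limit of 10% gave 8 for P4 and 8 for low PBDE, leaving out members above 40000 UMIs gave 4 for P4 and 2 for high PBDE, and the Cd209a side alone gave 0 for P4 and 1 for low PBDE. Leaving out 1 library gave 4 to 23 genes for E2, 0 to 12 for P4, 0 to 2 for low PBDE, 1 to 14 for high PBDE and 0 to 21 for the difference from macrophages. E2 gave 23 without VCD_Vehicle and 4 without VCD_E2, VCD_Low_PBDE or VCD_High_PBDE, P4 gave 12 without VCD_E2_P4 and 0 without VCD_Low_E2_P4, VCD_High_PBDE or VCD_High_PBDE_E2_P4, high PBDE gave 1 without VCD_High_PBDE, 2 without VCD_E2_P4 and 14 without VCD_High_PBDE_E2_P4, and the difference gave 0 without VCD_Vehicle and 21 without VCD_High_PBDE_E2. The difference from macrophages gave 0 by DESeq2 and 1 with at least 20 counts. The Clec9a/Xcr1 against Cd209a count of 1690 was 1048 by DESeq2 and 1122 with at least 20 counts. The cause of these moves was not tested.

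The E2 difference of the Clec9a/Xcr1 share was 6.14 points when a side needed 2 UMIs, 14.7 with cells thinned to 3000 UMIs and 6.23 to 12.4 points without 1 library. That of the Cd209a share was -7.51 points with cells thinned to 3000 UMIs, -12.4 when a side needed 2 UMIs and -17.4 to -6.77 without 1 library. Once a library was left out neither p could pass 0.05, since fewer arrangements remained. Without 1 library the dendritic cell share differed by -0.733 to 3.26 points and the Ccr7 share by -0.888 to 3.72 points. The median of the interferon-stimulated list was 0.695 to 1.33 without 1 library, lowest without VCD_Low_PBDE. Leaving out a vehicle library took its whole diet out of the share differences. The E2 difference of the dendritic cell share turned negative without VCD_High_PBDE, and so without the high-PBDE diet.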

Other observations

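In the 25 dendritic cells with no side, C1q macrophage markers summed to 10003 CPM, against 1981 CPM on the Clec9a/Xcr1 side, 4983 CPM on the Cd209a side and 1872 CPM on the Ccr7 side, and monocyte markers to 2330.2 CPM, against 562 to 1090.4 CPM on the sides and 1864 CPM in macrophages. Retnla was at 2384 CPM, inside the range of the libraries on the Cd209a side, and Irf8 at 353 CPM.

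Ahr, the receptor for dioxin-like compounds, was higher on the Clec9a/Xcr1 side than on the Cd209a side, with pooled levels of 216, 81.4 and 51.4 CPM on the Clec9a/Xcr1, Cd209a and Ccr7 sides and 32.6 CPM in macrophages. The log2 difference between the first and the second was 1.49 ± 0.17 (SE, edgeR adjusted p = 4.04e-06). In the 12 libraries it ran from 45.1 CPM in VCD_E2_ICI to 225 CPM in VCD_Vehicle_NormEnv.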
